A study of Mus musculus with 21 samples.

Results

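Mitochondrial tRNA cytosines are the cytosines of either strand that lie within the 22 tRNA genes of the mouse mitochondrial genome. They were taken from RNA bisulphite sequencing of mouse back skin as every listed position of chromosome M that falls inside one of these genes, which gave 251 of the 897815 cytosines listed in any library. Of the 251, 157 were on the strand of the tRNA (sense) and 94 on the opposite strand (antisense). The comparison was between 4 WT and 4 NSun2-/- libraries, described by the authors as independent biological replicates, and it addressed which cytosines lose methylation when the RNA methyltransferase NSun2 is absent. The mice were males at postnatal day 25 on a C57Bl6/J CBA F1 background. The NSun2-/- mice carried a gene trap in an intron of Nsun2, from a single embryonic stem cell clone, and the WT mice came from the same breedings. The back skin was whole tissue, so that fewer cells of a type and less RNA per cell cannot be told apart.

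NSun2 transfers a methyl group to the fifth carbon of cytosine (m5C) and is known for modifying tRNAs at the junction of the variable loop and the T arm. Bisulphite turns unmodified cytosine into uracil, which is read as T, while m5C is read as C. A high percent of unconverted reads therefore marks m5C or a cytosine that the reagent did not reach, for example within a stable fold. Mitochondrial tRNAs are transcribed from both strands of mitochondrial DNA as parts of long precursors, are cut out of them, and decode the mRNAs of the respiratory chain. The proteins that modify them are encoded in the nucleus and imported. Positions below follow tRNA numbering, in which 49 is the first paired nucleotide of the T arm, 48 precedes it and 50 follows it, and 34 is the first base of the anticodon.

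The 3 tRNAs in which a sense cytosine was called are shown whole. The capital marks the cytosine of position 48 or 49 that was called, and the sequences are from NCBIM37 (mm9), 5′ to 3′ on the strand of the tRNA. mt-Tl1, for leucine codons UUR, is chrM:2676-2750 on the plus strand. mt-Ts2, for serine codons AGY, is chrM:11613-11671 on the plus strand and is the mitochondrial tRNA that lacks a D arm. mt-Te, for glutamate, is chrM:14071-14139 on the minus strand.
mt-Tl1: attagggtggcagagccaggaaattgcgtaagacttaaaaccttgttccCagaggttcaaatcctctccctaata
mt-Ts2: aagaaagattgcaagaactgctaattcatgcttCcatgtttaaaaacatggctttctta
mt-Te: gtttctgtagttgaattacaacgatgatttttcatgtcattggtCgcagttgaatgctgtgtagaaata

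The junction of these tRNAs and of the other tRNAs with a cytosine at positions 48 to 50 differed in sequence. Each stretch below ends in the T arm and has the named cytosine in capitals.
mt-Tl1 C48: gttccCagagg
mt-Ts2 C49: tgcttCcatg
mt-Te C49: ttggtCgcag
mt-Tm C48: aaaaCgttgg
mt-Th C48: acaaCaggaa
mt-Tl2 C48: aaaaCcttgg
mt-Tl2 C49: aaaacCttgg
mt-Tn C48: attttCgtagg
mt-Ty C48: aacaCagagg
mt-Tg C50: tagattCtga

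In all, 9 of the 22 tRNAs encode a cytosine at positions 48 to 50, and together they have 11. Of these 11 cytosines, 9 were listed and 4 were covered by 10 or more reads in 3 or 4 WT and 3 or 4 NSun2-/- libraries, the minimum for a test. They were mt-Tl1 C48, mt-Ts2 C49, mt-Ts2 C50 and mt-Te C49. Of all 251 mitochondrial tRNA cytosines, 144 could be tested, 84 sense and 60 antisense. They were tested with all 122736 cytosines of the genome that met this minimum, by edgeR's quasi-likelihood test on unconverted and converted reads. Calls required that the p adjusted by Benjamini-Hochberg fell under 0.05 and that the genotype means lay 10 or more percentage points apart.

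The WT libraries listed between 156018 and 196679 cytosines. NSun2-/- replicates 1, 3 and 4 listed more than any WT library, at 665049, 658169 and 385574. NSun2-/- replicate 2 was the smallest library, with 110324. Between 96 and 244 mitochondrial tRNA cytosines were listed per library. Of the 251, 45 were listed in NSun2-/- libraries only and 0 in WT libraries only. The same shares over all 897815 listed cytosines were not computed, so these counts are not read as a trait of mitochondrial tRNAs. Exons of Nsun2 had between 23 and 48 listed cytosines in the WT libraries and 0 in each NSun2-/- library. Transcripts of the keratinocyte keratins Krt5, Krt14 and Krt10 and of the collagens Col1a1 and Col1a2 were listed in all 8 libraries, as were those of the muscle genes Acta1 and Ckm. Of the erythrocyte globins, Hba-a1 had 0 listed cytosines in every library and Hbb-b1 between 0 and 25. Cytosines of mitochondrial mRNAs were 8.37% ± 2.25 unconverted in WT skin (SD, n = 4) and 14.6% ± 10.8 without NSun2 (SD, n = 4), with the highest value, 30.3%, in NSun2-/- replicate 2 and the lowest, 6.18%, in NSun2-/- replicate 3. These percents were spread more widely among the NSun2-/- libraries than among the WT libraries, and incomplete conversion as a part of the values below was not tested, beyond the comparisons given within each tRNA.

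In NSun2-/- skin 5 of the 144 tested mitochondrial tRNA cytosines were called lower and 0 higher. Over all tested cytosines 0.147% were called lower and 0.114% higher. Their median WT percent was 2.22%, and a cytosine under 10% in WT could not be called lower. Of the 144, 54 had a WT mean of 20% or more. By edgeR at an unadjusted p under 0.05, 5 of the 144 were lower and 3 higher, against 851 lower and 2666 higher of all 122736. Calls by limma were 2 lower and 0 higher of the 144, against 125 lower and 11 higher of all 122736. Over the 144 cytosines the median difference was 3.03 percentage points, against 1.13 over all 122736. Of the 5 cytosines, 3 were sense and lay at position 48 or 49, in 3 tRNAs, and 2 were neighbours on the strand opposite mt-Tt. Of the 4 tested cytosines at positions 48 to 50, 3 were called lower. Of the 80 tested sense cytosines elsewhere, 0 were called in either direction by edgeR or limma. Their unadjusted edgeR p was under 0.05 at 2. The WT mean was 20% or more at all 4 cytosines of positions 48 to 50 and at 23 of the 80. The 2 counts of calls therefore start from unlike WT levels. None of the other 725 tested cytosines of chromosome M were called by edgeR or limma, while at an unadjusted edgeR p under 0.05 0 were lower and 74 higher.

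mt-Tl1 C48 is at position 2725 of chromosome M, in the variable loop. In WT replicates 1 to 4 it was unconverted in 111 of 125, 80 of 84, 133 of 140 and 167 of 183 reads, that is 88.8%, 95.2%, 95% and 91.3%. In NSun2-/- replicates 1 to 4 it was unconverted in 38 of 280, 13 of 96, 16 of 429 and 25 of 251 reads, that is 13.6%, 13.5%, 3.73% and 9.96%. Every WT library lay above every NSun2-/- library, with no value between 13.6% and 88.8%. The mean fell from 92.6% ± 3.11 to 10.2% ± 4.64 (SD, n = 4 each; edgeR adjusted p = 1.11e-12). An exact two-sided permutation test of the percents gave p = 0.0286, the lowest value possible with 4 against 4. The Wilson 95% intervals of single libraries were between 3.66 and 13.7 points wide, and such intervals cover counting error only.

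The same tRNA gave its own comparison, since 16 other cytosines were listed in it. They were 4.82% ± 1.44 unconverted on average in WT and 8.22% ± 3.36 in NSun2-/- skin. In WT, C48 exceeded their mean by 87.8 ± 4.23 points (SD, n = 4). In NSun2-/- skin it exceeded their mean by 1.98 ± 2.44 points (n = 4), and in 3 of the 4 libraries at least 1 other cytosine of mt-Tl1 was higher. The exception was NSun2-/- replicate 2, at 13.5% against at most 12.8%. The cytosine before it, at nucleotide 49 of the tRNA, was between 2.80% and 10.2% unconverted in WT and between 3.00% and 12.9% in NSun2-/- skin. Of the 17 listed cytosines of mt-Tl1, 1 was called.

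mt-Ts2 C49 is at position 11646. In WT replicates 1 to 4 it was unconverted in 103 of 125, 49 of 68, 74 of 94 and 127 of 156 reads, that is 82.4%, 72.1%, 78.7% and 81.4%. In NSun2-/- replicates 1 to 4 it was unconverted in 294 of 1034, 101 of 237, 15 of 916 and 165 of 940 reads, that is 28.4%, 42.6%, 1.64% and 17.6%. The groups did not overlap, and the NSun2-/- libraries were spread far more widely than the WT libraries. The mean fell from 78.6% ± 4.66 to 22.6% ± 17.3 (SD, n = 4 each; edgeR adjusted p = 2.12e-04), and the exact two-sided permutation p was 0.0286. The call was not made with at least 30 reads per cytosine (edgeR adjusted p = 0.110) or with limma (adjusted p = 0.260). Every library had 68 or more reads at C49, so that the minimum of 30 changed only the other cytosines in the fit.

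The spread among NSun2-/- libraries was shared by the rest of mt-Ts2. Its 8 other cytosines outside positions 48 to 50 had means of 25.0%, 38.2%, 3.28% and 17.2% in NSun2-/- replicates 1 to 4, close to C49 in each. C49 exceeded these means by 1.65 ± 2.79 points in NSun2-/- skin and by 61.2 ± 8.0 points in WT (SD, n = 4 each). This subtraction was chosen with the data in view, and it gave a difference of -59.6 points with an exact two-sided permutation p of 0.0286. Position 50, at 11647, is the next nucleotide and also a cytosine. It was 12.0%, 19.7%, 18.3% and 33.3% unconverted in WT replicates 1 to 4 and 26.7%, 43.3%, 1.11% and 17.0% in NSun2-/- replicates 1 to 4. These groups overlapped, the difference was 1.21 points (edgeR adjusted p = 1), and in each library C50 lay within 5.13 points of the mean of the other cytosines. Of the 2 adjacent cytosines, 1 was therefore high in WT.

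mt-Te C49 is at position 14095 on the minus strand, and its coverage was lower. In WT replicates 1 to 4 it was unconverted in 17 of 18, 9 of 10, 35 of 38 and 46 of 48 reads, that is 94.4%, 90.0%, 92.1% and 95.8%. In NSun2-/- replicates 1, 3 and 4 it was unconverted in 6 of 23, 8 of 30 and 6 of 26 reads, that is 26.1%, 26.7% and 23.1%, and replicate 2 did not list it. The groups did not overlap, and within each the values were close together. The mean fell from 93.1% ± 2.57 (SD, n = 4) to 25.3% ± 1.93 (SD, n = 3; edgeR adjusted p = 6.18e-04). The exact two-sided permutation p was 0.0571, the smallest that 4 against 3 allow. Wilson 95% intervals of single libraries were up to 38.6 points wide at this depth.

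In NSun2-/- skin mt-Te C49 remained above every other listed cytosine of the tRNA in each of the 3 libraries. The excess over their mean was 15.6 ± 9.69 points (SD, n = 3), against 89.1 ± 2.78 points in WT (n = 4). In NSun2-/- replicate 3 none of the reads at the other listed cytosines of mt-Te were unconverted, while C49 was at 26.7% with a Wilson 95% interval from 14.2% to 44.4%. Whether the excess at mt-Te differed from that at mt-Tl1 and mt-Ts2 was not tested.

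**Figure D1:**
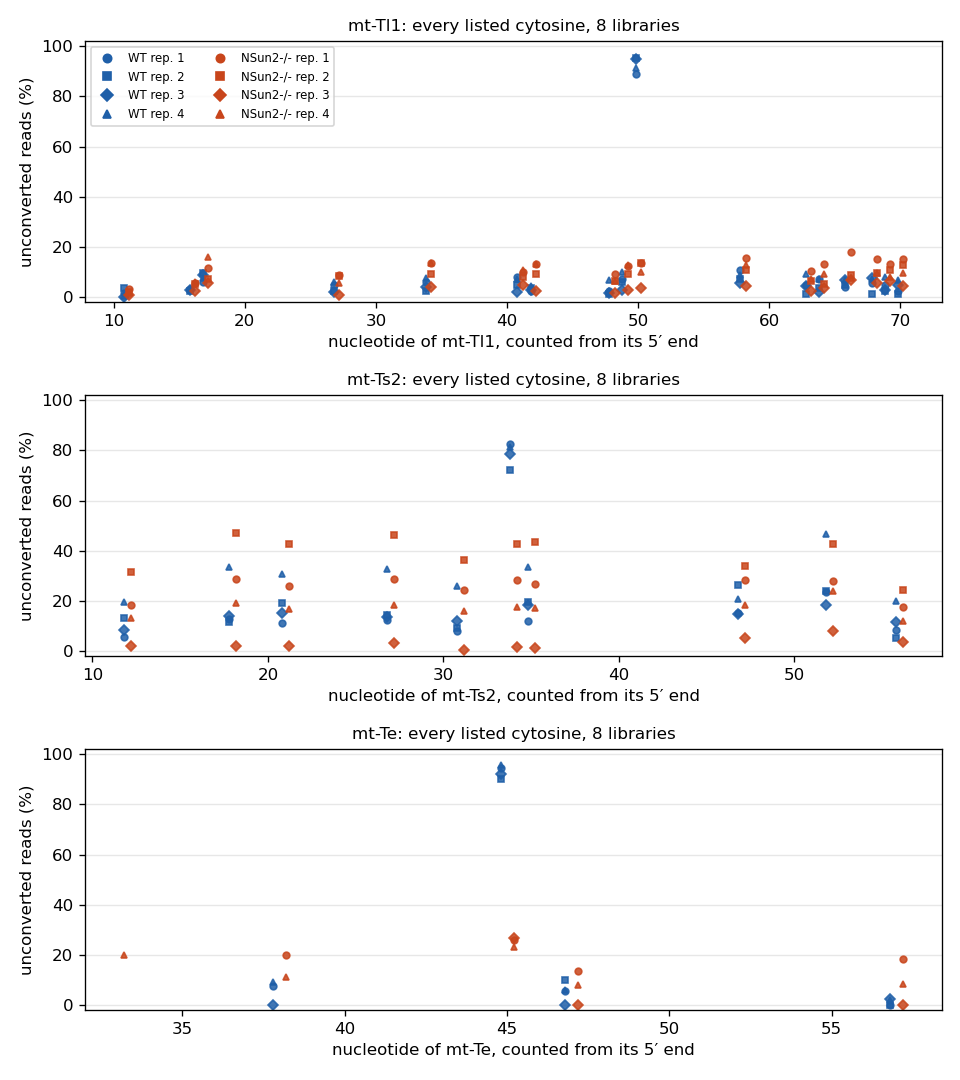
Percent of unconverted reads (vertical axis) at each listed cytosine of mt-Tl1, mt-Ts2 and mt-Te by nucleotide from the 5′ end (horizontal axis), with 1 point per library, WT in blue and NSun2-/- in red. The WT points stand apart at 1 cytosine of each tRNA, between 88.8% and 95.2% in mt-Tl1, 72.1% and 82.4% in mt-Ts2 and 90.0% and 95.8% in mt-Te.

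The other 5 listed cytosines at positions 48 to 50 were listed in fewer than 3 WT libraries, and are given as values. mt-Tm C48, in the methionine tRNA, was 94.1% and 95% unconverted in WT replicates 3 and 4 and 80.1%, 86.7% and 79.7% in NSun2-/- replicates 1, 2 and 4. When 2 libraries of each genotype sufficed for a test, its difference of -12.4 points was not called (edgeR adjusted p = 1), and the remaining 4 were not tested there either. mt-Th C48, in the histidine tRNA, was unconverted in all 14 reads of WT replicate 4 and at 77.6%, 69.2% and 65.8% in NSun2-/- replicates 1, 2 and 4. mt-Tl2 C48, in the tRNA for leucine codons CUN, was 62.5% in WT replicate 4 and 85.7%, 100% and 91.3% in NSun2-/- replicates 1, 2 and 4. Most other cytosines of these tRNAs were also high. The 16 cytosines of mt-Tm outside positions 34 and 48 had means of 81.4% and 80.2% in WT replicates 3 and 4. In NSun2-/- replicates 1, 2 and 4 these means were 81.3%, 81.6% and 77.1%. Medians over the listed cytosines of mt-Th and mt-Tl2 were 83.2% and 63.2% in WT replicate 4. In NSun2-/- replicates 1, 2 and 4 these medians were 77.8%, 74.1% and 64.9% in mt-Th and 58.3%, 82.6% and 56.25% in mt-Tl2. The excess of C48 over the rest of its tRNA was not tested here. mt-Tl2 C49 was at 83.3% in WT replicate 4 and at 54.9% and 45.8% in NSun2-/- replicates 1 and 4. mt-Tn C48 was listed in NSun2-/- replicate 3 only, at 70.0% of 20 reads. mt-Ty C48 and mt-Tg C50 were listed in no library.

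Averaged over the 4 tested cytosines at positions 48 to 50, 71.3% ± 2.90 of reads were unconverted in WT skin (SD, n = 4) and 20.5% ± 10.5 without NSun2 (SD, n = 4). The WT libraries lay between 69.2% and 75.5% and the NSun2-/- libraries between 8.29% and 33.2%, without overlap. For NSun2-/- replicate 2 this mean is over 3 cytosines, since it did not list mt-Te C49. The 80 tested sense cytosines elsewhere in mitochondrial tRNAs were 16.5% ± 4.5 unconverted in WT and 21.4% ± 9.40 in NSun2-/- skin. Cytosines of the mitochondrial rRNAs were at 8.53% ± 4.97 and 18.1% ± 13.9. In these other sets the genotypes overlapped and the mean was higher in NSun2-/- skin. Without NSun2-/- replicate 2 the differences were 1.75 points for the other tRNA cytosines, 1.04 for mRNAs and 3.39 for rRNAs, against 4.96, 6.26 and 9.57 with it. NSun2-/- replicate 2 was the highest and replicate 3 the lowest NSun2-/- library in every set.

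**Figure D2:**
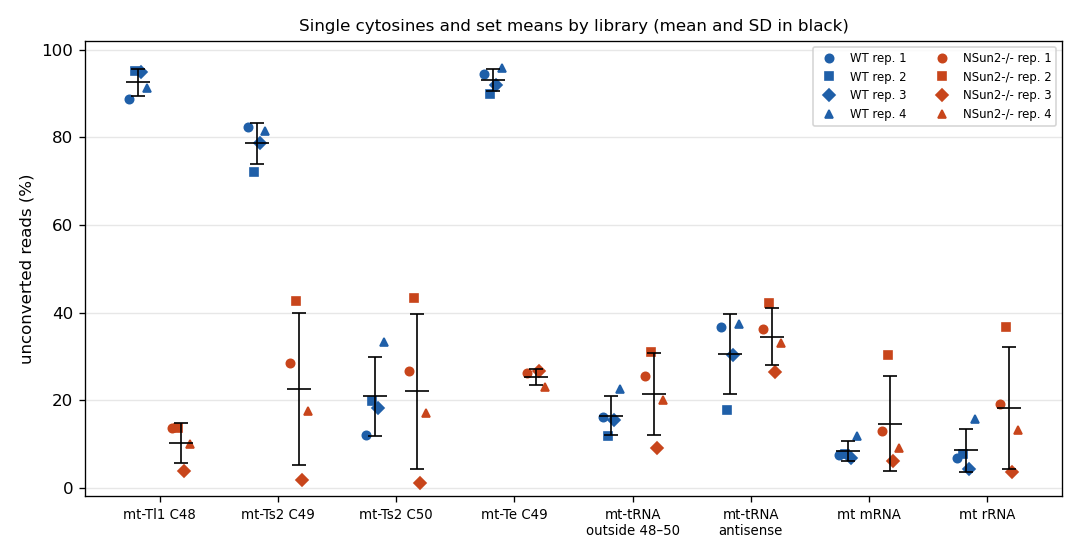
Percent of unconverted reads (vertical axis) by library at the 4 tested cytosines of positions 48 to 50 and as the mean over sets of tested cytosines (horizontal axis), with the mean and SD of each genotype in black. WT and NSun2-/- libraries are apart at mt-Tl1 C48, mt-Ts2 C49 and mt-Te C49 and overlap at mt-Ts2 C50 and in the sets.

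Away from positions 48 to 50, tRNAs differed widely in how many reads stayed unconverted. In mt-Tp, the proline tRNA and the deepest, with a median of 389.5 to 2876 reads per cytosine in a library, the median percent was between 1.0% and 1.8% in all 8 libraries. Its 10 cytosines were all tested, and their differences lay between -0.75 and 0.89 points. mt-Ta and mt-Tc, for alanine and cysteine, had 9 tested cytosines each and medians of 0 to 3.2% and 2.9% to 18.2% in WT. Their median differences were 8.51 and 8.32 points, none of them called. In mt-Tq, for glutamine, the WT medians were between 16.2% and 31.9%.

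High percents at most listed cytosines were found in mt-Tm and mt-Th, and in some libraries in mt-Tf, mt-Ti, mt-Tv, mt-Tt and mt-Tl2. Medians in mt-Tl2 were between 38.7% and 63.2% in WT and between 50.8% and 82.6% in NSun2-/- libraries, over 6 to 11 listed cytosines. In mt-Tm the median over its 18 listed cytosines was 82.4% and 81.0% in WT replicates 3 and 4 and between 78.2% and 83.7% in the 3 NSun2-/- libraries that listed it. mt-Th had a median of 83.2% in WT replicate 4 and of 64.9% to 77.8% in NSun2-/- libraries. mt-Tf, mt-Ti and mt-Tt were listed on their own strand only in NSun2-/- replicate 1 or 4, with medians between 61.9% and 80.0%. Both of these libraries listed more cytosines than any WT library. In NSun2-/- replicate 4 single cytosines of mt-Tf and mt-Ti were as low as 41.0% and 40.0%, and mt-Tt was listed at 4 of its 13 cytosines, with a median of 10 reads, in NSun2-/- replicate 1 alone. The median of mt-Tv, for valine, was 42.9% to 69.8% in 3 WT libraries and 65.9% to 78.0% in NSun2-/- replicates 1, 2 and 4. In NSun2-/- replicate 3 the median of mt-Tv was 0 over 9 listed cytosines with a median of 15 reads, and single cytosines reached 25%. The deposited values hold no single reads, and incomplete conversion of these molecules was not tested.

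**Figure D3:**
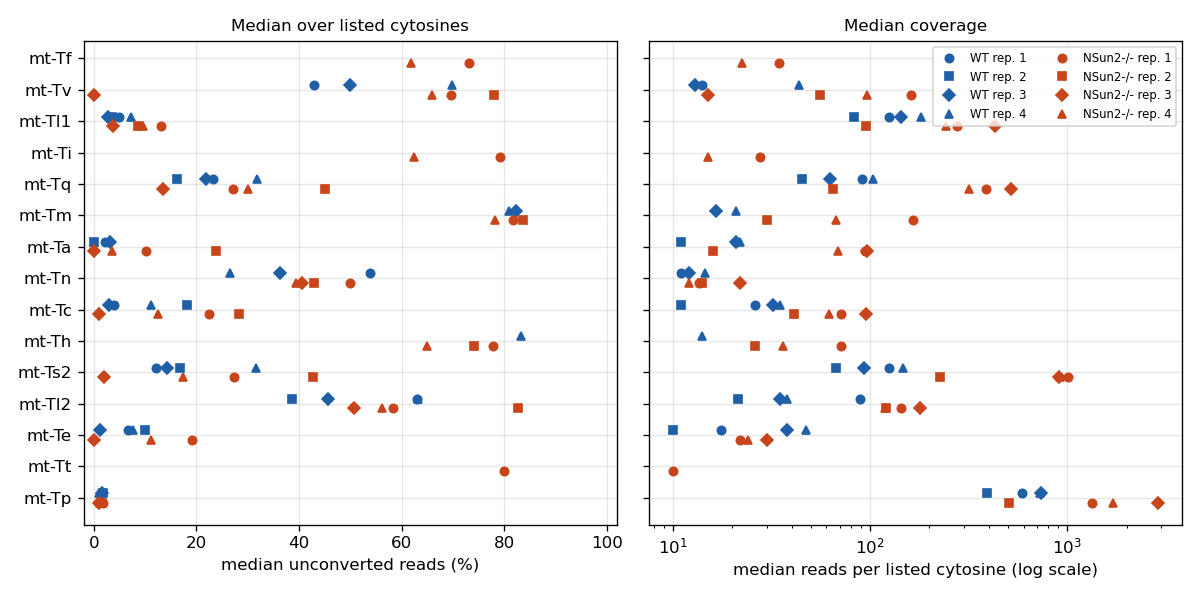
Median percent of unconverted reads over the listed cytosines of each tRNA (left, horizontal axis) and median reads per listed cytosine (right, horizontal log axis) for the 15 tRNAs with a listed sense cytosine, with 1 point per library, WT in blue and NSun2-/- in red. mt-Tp is the deepest and lies between 1.0% and 1.8% in every library, while mt-Tm lies between 78.2% and 83.7%.

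Among anticodon loop cytosines, 1 at position 34 or 38 could be tested. mt-Tv C38, at position 1061, was 52.5% ± 15.3 unconverted in 3 WT libraries and 74.8% ± 4.77 in 3 NSun2-/- libraries (SD). Its difference of 22.2 points was not called (edgeR adjusted p = 1). WT replicates 1 and 3 had 11 reads each there, and NSun2-/- replicate 3 did not list it. At the next cytosine, 1062, NSun2-/- replicate 3 had 0 of 15 reads unconverted. Over the 9 tested cytosines of mt-Tv the median difference was -1.81 points. mt-Tm C34, the wobble base that NSUN3 is known to methylate, was listed in 2 WT libraries. When 2 libraries of each genotype sufficed for a test, its difference of -3.66 points was not called (edgeR adjusted p = 1). It was unconverted in 15 of 16 and 20 of 20 reads in WT replicates 3 and 4, and in 161 of 167, 25 of 28 and 62 of 66 reads in NSun2-/- replicates 1, 2 and 4. It exceeded the mean of the other cytosines of mt-Tm in all 5 libraries, by 16.1 ± 5.2 points in WT (n = 2) and 13.2 ± 4.83 points in NSun2-/- skin (n = 3).

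Of the 10 tested cytosines outside positions 48 to 50 with the highest WT percent, 1 was sense and none were called. The sense cytosine was mt-Tl2 C32, at position 11701 in the anticodon loop. It was 89.2%, 83.3%, 88.5% and 89.6% unconverted in WT replicates 1 to 4 and 86.6%, 87.1%, 87.7% and 73.7% in NSun2-/- replicates 1 to 4. The groups overlapped, with means of 87.7% ± 2.92 and 83.8% ± 6.75 (edgeR adjusted p = 1). The antisense cytosines were 2 opposite mt-Tw, 2 opposite mt-Tt and 5 opposite mt-Tp, with WT means between 74.2% and 96.5% and differences between -13.2 and 12.4 points.

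The 2 called antisense cytosines lie opposite mt-Tt at positions 15315 and 15314 on the minus strand, 41 and 42 nucleotides after the 3′ end of mt-Tp. This stretch, chrM:15304-15355 of NCBIM37 on the minus strand, is shown with both in capitals.
Opposite mt-Tt: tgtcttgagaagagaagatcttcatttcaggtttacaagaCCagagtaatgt

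At 15315 the WT libraries gave 90.6%, 9.38%, 80.0% and 95.7% and the NSun2-/- libraries 16.1%, 56.9%, 27.6% and 10.2%, in the order of replicates 1 to 4. At 15314 the WT libraries gave 86.2%, 3.97%, 92.6% and 89.7% and the NSun2-/- libraries 19.6%, 16.4%, 73.0% and 15.9%. In both, WT replicate 2 lay below every NSun2-/- library, so that the groups overlapped. The mean fell from 68.9% ± 40.2 to 27.7% ± 20.8 at 15315 (edgeR adjusted p = 0.00975) and from 68.1% ± 42.8 to 31.2% ± 27.9 at 15314 (edgeR adjusted p = 0.0457; SD, n = 4 each). Neither was called by limma (adjusted p = 0.959 for both), and the exact two-sided permutation p was 0.143 and 0.171. Leaving out WT replicate 1, 3 or 4, or NSun2-/- replicate 1 or 4, ended both calls.

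Coverage along this strand was uneven. In WT replicate 1, 448 reads covered the cytosine at 15336 and 32 the one at 15333, 3 nucleotides away, while 15315 and 15314 had 298 and 130. The cytosine at 15336 was between 94.9% and 97.9% unconverted in all 8 libraries, with means of 96.5% ± 1.13 and 97.5% ± 0.25. Between 15336 and the called pair, 15328 was at 41.7% to 51.7% in WT and 36.8% to 47.6% in NSun2-/- skin. Both of these cytosines varied less among libraries than the called pair. The listed cytosine nearest the pair, 15320, was at 64.9% to 91.2% in WT and 91.1% to 95.4% in NSun2-/- skin. At 15333 the libraries lay between 65.6% and 84.4%.

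**Figure D4:**
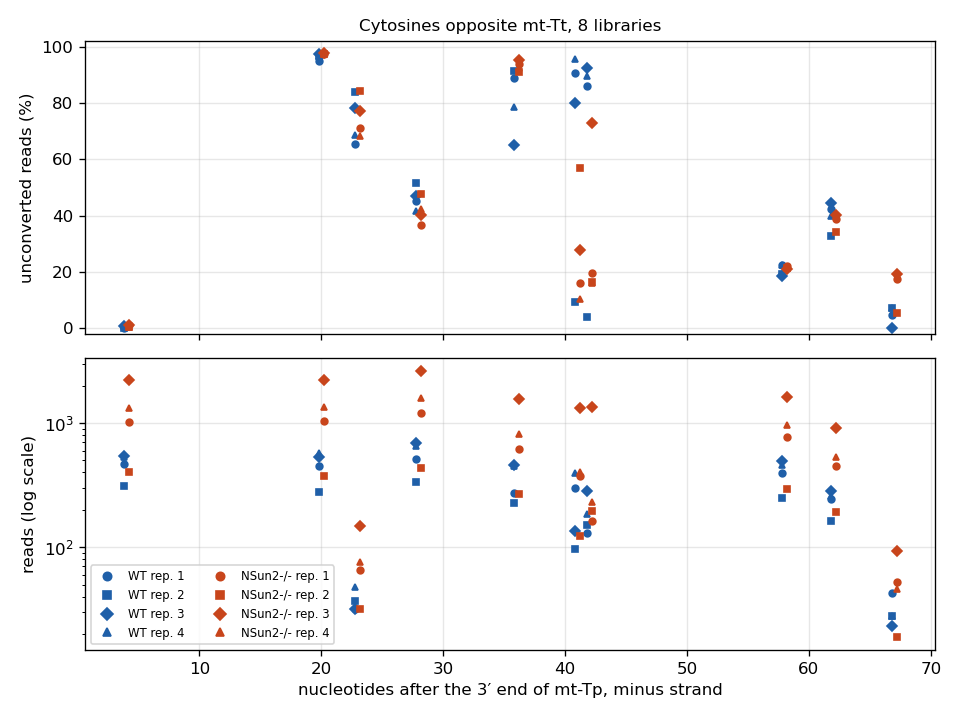
Percent of unconverted reads (top) and reads on a log axis (bottom) at the 10 listed cytosines opposite mt-Tt, by distance from the 3′ end of mt-Tp in nucleotides, with 1 point per library. The libraries scatter more widely at nucleotides 41 and 42 than at the other cytosines.

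The further readouts of the series held little on mitochondrial tRNAs. The tRNA-seq table of mouse back skin had 0 of 1143 genes on chromosome M, and 0 of its 53875 lines held a sequence that matched chromosome M exactly. The Pol III ChIP-seq table listed 1 mitochondrial tRNA locus, for leucine with anticodon TAA, the anticodon of mt-Tl1. It had 11 and 73 counts in the 2 WT libraries (298 and 1156 RPM, counts scaled to the library total), 34 in the NSun2-/- library (357 RPM), and 21 and 48 in the WT and NSun2-/- inputs (1319 and 3314 RPM). The 2 WT libraries share 1 input, and no difference was tested. With 1 NSun2-/- library there is no replicate check. Mitochondrial DNA is known not to be transcribed by Pol III.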

How the data were processed

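Bisulphite reads of back skin RNA (4 WT and 4 NSun2-/- libraries), depleted of rRNA and treated with DNase, were aligned by the authors with Bismark (0.7.6 in the submitters' processing notes), keeping unique best alignments. The authors deposited unconverted and converted read counts and the percent unconverted per cytosine from 10 reads on, without strand. Positions fell on C or G of NCBIM37, and the base gave the strand. tRNA genes were from the GENCODE annotation of that build, and position 49 was placed by pairing the T stem from the 3′ end. The annotated mt-Th gave 1 acceptor pair only.

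The edgeR fit (4.0.16, R 4.3.3) used cytosines listed in 3 or 4 libraries of WT and of NSun2-/- skin, and a library that does not list a cytosine entered with 0 reads. Means ± SD are over libraries. Alternatives were limma (3.58.1), coverage, number of libraries, minimum difference, pooled reads, correction for mitochondrial mRNA, a replicate block and each library left out. Exact permutation tests used scipy 1.17.1. The planned test of tRNA-seq counts was not made, since no mitochondrial gene was found there.

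Named were the cytosines at positions 48 to 50, all called ones, tested ones at positions 34 and 38, and the 10 with the highest WT percent elsewhere. Members and lists were chosen with earlier results of these data known, and the division into strands, details of the T arm search, the subtraction within a tRNA and mt-Tm C34 after values were seen. The edgeR test was tested on simulated data under 3 models of the spread between libraries. Recovery varied strongly between them, so the lack of a call does not show that a cytosine kept its percent.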

Additional observations from a re-analysis of the deposited data

Results flagged for a closer look

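In groups of 4 libraries, a single library stood apart from the other 3 at 4 of 32 groups examined. About 1 in 20 would do so if values were independent and evenly spread. The sites were named partly for their values, and 15314 was flagged in both genotypes, so no excess is read from this count. At 15314, opposite mt-Tt, WT replicate 2 was at 3.97% against 86.2% to 92.6% in the other WT libraries. At the same cytosine NSun2-/- replicate 3 was at 73.0% against 15.9% to 19.6% in the other NSun2-/- libraries. At mt-Tl2 C32 NSun2-/- replicate 4 was at 73.7% against 86.6% to 87.7%. At 15336, also opposite mt-Tt, NSun2-/- replicate 3 was at 97.9% against 97.3% to 97.4%, a gap of under 1 point.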

How the results depend on the processing

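The count of 5 lower cytosines became 1 with at least 30 reads per cytosine (85 tested) and 2 with limma, and lay between 2 and 5 when each library was left out. It was 2 without NSun2-/- replicate 1 or 4, where mt-Te C49 could not be tested, and 3 without WT replicate 1, 3 or 4. The count of 0 higher cytosines lay between 0 and 1 over the same omissions. The 1 was nucleotide 39 of mt-Tl2 without NSun2-/- replicate 3 (38.3 points, edgeR adjusted p = 0.0138). mt-Tl1 C48 was called under every alternative fit. With at least 30 reads per cytosine mt-Te C49 could not be tested, while mt-Ts2 C49, 15314 and 15315 kept their differences but not their calls. mt-Ts2 C49 and mt-Te C49 kept their calls in each library omission in which they were tested. With the replicate block the count was 4, as 15314 was not called (adjusted p = 0.134). Same-numbered libraries deviated together with correlations of -0.17, -0.16, 0.64 and -0.25, so the numbers were not taken as pairs.

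The mean over positions 48 to 50 differed by -50.8 points as measured, by -61.9 after correction for mitochondrial mRNA, and between -55.0 and -46.7 when each library was left out. Over all cytosines, 180 lower and 140 higher calls became between 117 and 210 lower and between 1 and 526 higher over the alternatives. Among the called cytosines mt-Te C49 had the lowest coverage, with 10 to 48 reads per library. Of the 5 listed cytosines of positions 48 to 50 without a test, mt-Tm C48 was tested when 2 libraries of each genotype sufficed and was not called, and 4 were not tested.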

Other observations

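Another antisense cytosine was called only when 2 libraries of each genotype sufficed. It lies opposite mt-Tw at position 4977 on the minus strand, 41 nucleotides after the 3′ end of mt-Ta, and was singled out after its values were seen. The stretch chrM:4967-5017 of NCBIM37 on the minus strand is shown with it in capitals.
Opposite mt-Tw: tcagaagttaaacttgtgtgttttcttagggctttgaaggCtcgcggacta

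It was 91.2% and 88.0% unconverted in WT replicates 1 and 4 and 8.93%, 27.4% and 30.0% in NSun2-/- replicates 1, 3 and 4. The groups did not overlap, and the difference was -67.5 points (edgeR adjusted p = 0.0264). The other libraries did not list it, so that it rests on 2 WT libraries. On the same strand, 4973 was between 72.2% and 80.6% in 3 WT libraries and between 61.5% and 77.6% in the 4 NSun2-/- libraries.

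In mt-Tl2, neighbouring cytosines of the anticodon stem scattered in both genotypes. Nucleotide 39 was 33.6%, 44.4%, 28.6% and 73.6% unconverted in WT replicates 1 to 4 and 91.6%, 93.5%, 62.4% and 64.9% in NSun2-/- replicates 1 to 4. Nucleotide 40 was 88.1%, 16.0%, 61.1% and 83.6% in WT and 55.4%, 82.6%, 45.6% and 12.3% in NSun2-/- skin. The groups overlapped at both, and neither was called with all libraries (edgeR adjusted p = 0.53 and 1).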
